A study of Mus musculus with 30 samples.

Results

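Control astrocytes were the 14 of 30 arrays in the series whose titles name sham surgery or saline, and no array of an occluded or lipopolysaccharide-treated mouse was used here. They formed 4 groups: 4 arrays 1 day after an intraperitoneal injection of endotoxin-free saline, and 4, 3 and 3 arrays taken 1, 3 and 7 days after sham surgery, an operation without occlusion of the middle cerebral artery. All carry the reporter transgene Tg(Aldh1l1-eGFP) OFC789Gsat, bred onto Swiss Webster, and are labelled as young adult males. Brains were dissociated with papain, cells were sorted for the green fluorescent protein, and RNA (about 20 ng) went through 2 cycles of amplification before hybridisation to an Affymetrix mouse array. The reporter is driven by sequences of Aldh1l1, a folate enzyme gene used to mark astrocytes, so any other cell that carried the protein would have been sorted too. The labels name brain as the tissue and no region, so these cells are not called cortical here. They number the arrays as biological replicates but do not state that each comes from a mouse of its own, and the p-values below measure only the spread between these samples. A gene was represented by its brightest probe set with 1 gene symbol, by the mean over these 14 arrays, and the 18193 genes were ranked by that mean. All levels below are log2 of an RMA intensity, a brightness that also depends on the probe set, so the ranking is an order of brightness on this array and not of molecules.

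Astrocytes are the glia that take up glutamate and potassium around synapses, turn glutamate into glutamine, carry water at the blood vessels, hold the brain's glycogen, and supply neurons with lactate, cholesterol and lipoproteins. They bind and release signals through receptors for glutamate, endothelin, neurotensin and growth factors, and they secrete proteins that act on synapses and matrix. Immediate early genes are transcription factors and regulators that cells switch on within minutes of a stimulus.

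Of the 5 markers by which the cells were to be recognised, 4 were among the 31 highest of 18193 genes and the fifth was at rank 138. Aldoc, the brain's aldolase isoform, was at 13.93, 14.30 and 14.72 (lowest, median and highest of 14 arrays) and ranked 6th. Glul, glutamine synthetase, was at 13.48, 13.97 and 14.45. Slc1a2, the main glutamate transporter of the forebrain, was at 13.57, 13.83 and 14.44. Slc1a3, the second astrocyte glutamate transporter, was at 13.46, 13.83 and 14.43. Aqp4, the water channel of astrocyte endfeet, was at 12.78, 13.17 and 13.53. No array was low in any of them: the lowest of these 70 values was Aqp4 at 12.78, and the median gene had a mean of 7.27. Aldh1l1, the gene behind the sort, was at 12.29, 12.51 and 13.36 and ranked 316th, below the transporters.

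Sequence upstream of these markers was read from RefSeq promoters of assembly GRCm38.p6, each 300 bases long from 250 before to 50 after a start. A promoter was found for 17 of the 20 genes of a longer astrocyte marker list, with 21 promoters in all. They held a median of 5 CG dinucleotides, against 16 over the 18109 promoters of all array genes, 17 over those of the 50 highest genes and 5 over those of genes with a mean below 5. Of the 21, 9 (42.9%) held 3 or fewer, against 15.3% of the promoters of all array genes. Both kinds are shown because bright astrocyte genes lay on each side: Slc1a2, at chr2:102706188-102706487 on the plus strand, with 1 CG, and Glul, at chr1:153899679-153899978 on the plus strand, with 17. Capitals mark CG.
Slc1a2: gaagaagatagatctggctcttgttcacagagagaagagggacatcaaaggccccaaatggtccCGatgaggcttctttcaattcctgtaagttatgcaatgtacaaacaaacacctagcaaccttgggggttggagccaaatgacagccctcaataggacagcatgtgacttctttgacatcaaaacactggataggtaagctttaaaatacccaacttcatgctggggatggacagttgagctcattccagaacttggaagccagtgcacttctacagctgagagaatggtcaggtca
Glul: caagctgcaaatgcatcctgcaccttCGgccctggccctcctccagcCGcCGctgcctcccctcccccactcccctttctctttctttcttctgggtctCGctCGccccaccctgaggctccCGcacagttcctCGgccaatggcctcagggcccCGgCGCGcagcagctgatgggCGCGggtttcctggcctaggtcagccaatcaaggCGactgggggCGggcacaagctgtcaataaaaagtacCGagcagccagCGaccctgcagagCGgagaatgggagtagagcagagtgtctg
The letters describe the reference and not these mice, and a count of CG says nothing here of methylation.

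Several facts about the arrays bear on every value. Array medians were close, 69 to 73 on the linear scale, but the highest intensity was 31466 to 34303 on 7 arrays (all 4 of sham 1 day, saline 1 and 2, sham 3 days 3), called bright here, and 20222 to 22907 on the other 7, called dim (saline 3 and 4, sham 3 days 1 and 2, all 3 of sham 7 days). The difference grew with the level: bright minus dim had a median of 0.34 in the highest of 10 equal classes of genes by level, where 88.1% of genes were brighter on the bright arrays, and lay between -0.04 and -0.02 in the 5 lowest classes. Sham 1 day was all bright and sham 7 days all dim, so those groups and the array sets cannot be told apart. Saline 2, sham 1 day 3 and sham 3 days 3 had the lowest median correlation with the other arrays, 0.963, 0.966 and 0.971, against 0.975 to 0.985 for the rest. Saline 2, 3 and 4 were high in Xist, the RNA of the inactive X chromosome, at 12.69, 12.63 and 12.45, while the other 11 arrays were at 5.55 to 6.88. The Y-linked gene Eif2s3y was at 3.58 to 3.81 on these 3 and at 9.76 to 11.72 on the rest, so they go against their label of male. For some results a value recomputed without some of these arrays stands beside them. For the others such a value is not given here, and its absence does not mean that the result held. Without the arrays high in Xist the saline group is saline 1 alone, whose spread limma then takes from the other groups.

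**Figure D1:**
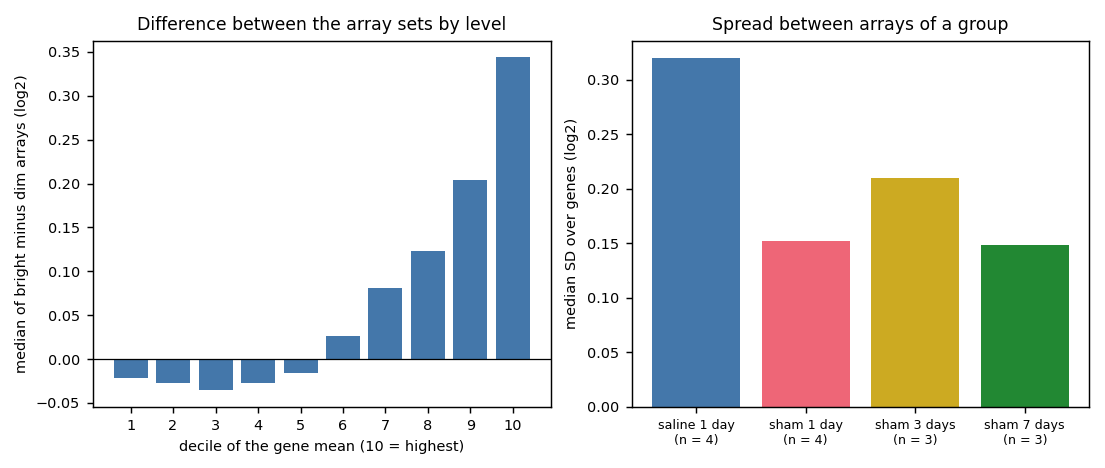
Left, the median difference in log2 intensity between the 7 bright and the 7 dim arrays, for genes in 10 equal classes of their mean level from 1 (lowest) to 10 (highest). Right, for each control group, the median over the 15271 genes tested of the SD between its arrays. The difference between sets reached 0.34 in class 10, and saline 1 day had the widest spread at 0.320.

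The highest gene was Clu, clusterin, a secreted chaperone and lipoprotein component, at 14.24, 14.67 and 15.06. Apoe, the main apolipoprotein of the brain, followed at 13.93, 14.50 and 15.03. Next came Cst3 at a mean of 14.50 (SD 0.30, n = 14), which encodes the protease inhibitor cystatin C, and Htra1 at 14.47 (SD 0.36, n = 14), a secreted serine protease. These 4 brightest genes thus all encode secreted proteins. Others of the 30 highest were Sparcl1, a secreted matrix protein that acts on synapses, at a mean of 14.29, and Bcan, the proteoglycan brevican, at 14.16. Gja1, connexin 43 of the astrocyte gap junctions, was at a mean of 14.06, and Atp1b2, a beta subunit of the sodium pump, at 14.13. The receptors Ntsr2, for neurotensin, and Gpr37l1 were there too, as were the lipid genes Scd2, Elovl5, Hacd3 and Fabp5. Ndrg2, Fam107a, Cpe, Plpp3, Gpm6a, Prnp, Ckb, Selenop, Klf9, Ldhb, Itm2b and Glud1 completed the group with Aldoc, Glul, Slc1a2 and Fos, the last an immediate early transcription factor at 13.67, 13.83 and 14.43. The 30th gene, Glud1, had a mean of 13.90, as had the 31st, Slc1a3, so the end of the group is not a step. Every one of the 30 was brighter on the bright arrays, by 0.58 in the median, with a mean over the 30 genes of 14.46 on the bright and 13.88 on the dim arrays.

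Which genes were highest differed little between arrays. All 30 were among the 500 highest on each of the 14 arrays, as were 49 of the 50 highest, and 18 of the 50 were among the 50 highest on every array. Over all arrays, 95 genes entered the 50 highest at least once. Ranked on the bright arrays alone the list kept 46 of its 50 genes, on the dim alone 48, and by group 43 for saline, 43 for sham 1 day, 40 for sham 3 days and 46 for sham 7 days. Of all genes, 184 (1.01%) had a mean of at least 13, 3120 (17.1%) of at least 10, and 3490 (19.2%) below 5. The choice of probe set moved the list further: with the mean of a gene's probe sets in place of the highest, 28 of the 50 stayed.

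**Figure D2:**
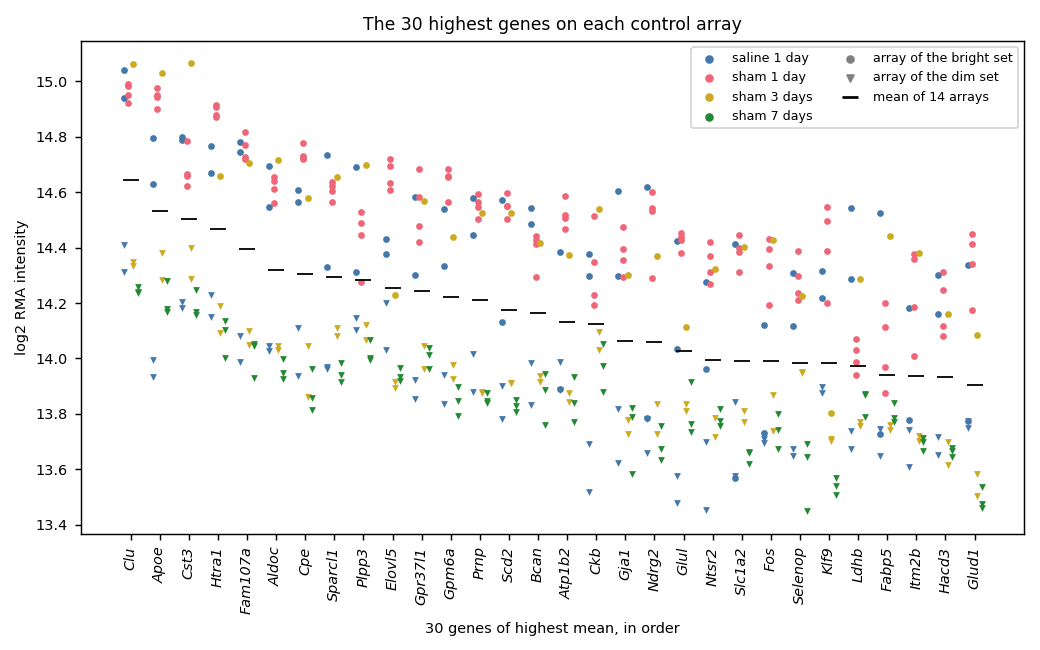
Log2 RMA intensity of the 30 genes of highest mean on each of the 14 control arrays. Genes are in order of the mean, circles are arrays of the bright set, triangles of the dim set, colours are the groups and dashes the mean of 14 arrays. Clu leads at a mean of 14.65, and the bright arrays lie above the dim ones in the mean of each gene.

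Transport and buffering genes stood high as groups. A list's place is given as the median percentile of its members, the share of the 18193 genes with a mean no higher. The 20 astrocyte markers were at 99.5, with 8 among the 50 highest, 13 among the 181 genes of the top 1% and 19 in the top 10%. Sox9, a transcription factor of glial fate, was the lowest of them at a mean of 10.38. The 13 measured genes of potassium, water and gap junctions were at 98.8. Among them Aqp4, Gja1, Gjb6, Atp1b2, Slc4a4, Mlc1 and Hepacam are also in the marker list. Kcnj10, the inward rectifier Kir4.1, was at a mean of 12.91 (SD 0.25), and Kcnj16, the Kir5.1 subunit that pairs with it, was the lowest of the list at 6.50 (SD 0.44). The 13 genes of glutamate and GABA handling were at 96.8, and Slc1a2, Slc1a3 and Glul are in the marker list too. Lists that share members do not give independent places. Below the transporters and Glul stood Slc38a3, which exports glutamine, at a mean of 12.67, and Abat, GABA transaminase, at 12.62. Slc6a11, the GABA transporter GAT-3, was the lowest of that list at 9.10 (SD 0.79).

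Lipid and cholesterol genes divided more widely. The 14 genes of lipid transport were at 96.3. Beside Clu and Apoe, Fabp5 was at a mean of 13.94 and Fabp7 at 12.83, both fatty acid binding proteins. Abca1, which loads cholesterol onto apolipoproteins, was at 12.80, and Abcg1, a related exporter, at 6.96. The 18 genes of cholesterol synthesis were at 91.1 and ran from Hmgcs1, the synthase at the head of the pathway, at 13.06, 13.72 and 14.25, to Fdps, farnesyl diphosphate synthase, at a mean of 8.51. Msmo1 was at a mean of 13.34, Fdft1, squalene synthase, at 12.69 and Sqle, squalene epoxidase, at 12.61.

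Energy genes stood at percentiles close to those of the transport genes. The 18 genes of glycolysis, glycogen and lactate were at 97.3, and so were the 23 of the respiratory chain. After Aldoc the brightest were Ldhb, the lactate dehydrogenase chain of oxidative cells, at a mean of 13.97, Pfkm, phosphofructokinase, at 13.33, and Pygb, brain glycogen phosphorylase, at 13.22. Gys1, glycogen synthase, was at 9.94 and Gbe1, the glycogen branching enzyme, at 6.89. Uqcrb of complex III was at a mean of 13.75 and Atp5a1 of the ATP synthase at 13.52, while Cox7c was the lowest of its list at 7.28. The 36 ribosomal protein genes were at 93.3, and at 85.9 without shared probe sets, here those with names ending in _s_at or _x_at. Among 18 antioxidant and metallothionein genes, at 94.6, Mt1 and Mt2 led at means of 13.64 (SD 0.87) and 13.62 (SD 0.69), small metal-binding proteins. Gstm1, a glutathione transferase, was at 13.40, and Hmox1, inducible heme oxygenase, at 6.50.

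Surface and signalling genes came next. The 17 receptors were at 96.8, led by Ntsr2 (lowest 13.45, median 13.89, highest 14.42). Fgfr3, a fibroblast growth factor receptor, was at a mean of 13.58, Grm3, a metabotropic glutamate receptor, at 13.32, and Ednrb, an endothelin receptor, at 13.30. The purinergic receptor P2ry1 was the lowest at 4.99. The 12 phagocytosis genes were at 94.4. Mfge8, a bridge to exposed phosphatidylserine, was at a mean of 13.84, and the engulfment receptors Mertk and Megf10 were at 12.79 and 12.61, against 7.02 for Elmo1, an adaptor of engulfment. With the mean of probe sets that list was at the 76.7th percentile. The 20 transcription factors were at 93.8, with Id4 at a mean of 13.72 and Dbx2 the lowest at 5.53. In the list of retinoid, thyroid and steroid genes, at 88.4, Slco1c1, a thyroxine transporter, was at a mean of 13.83 and Dio2, which activates thyroxine, at 13.58. The 16 secreted synapse proteins were at 85.1: Sparcl1 was followed by Ptn, pleiotrophin, at 13.30 and the glypican Gpc5 at 12.86, and Thbs1, a thrombospondin that induces synapses, was at 4.95. The 16 matrix genes were at 76.8, from Bcan and Ptprz1 at means of 14.16 and 13.20 to Has2, a hyaluronan synthase, at 5.03.

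**Figure D3:**
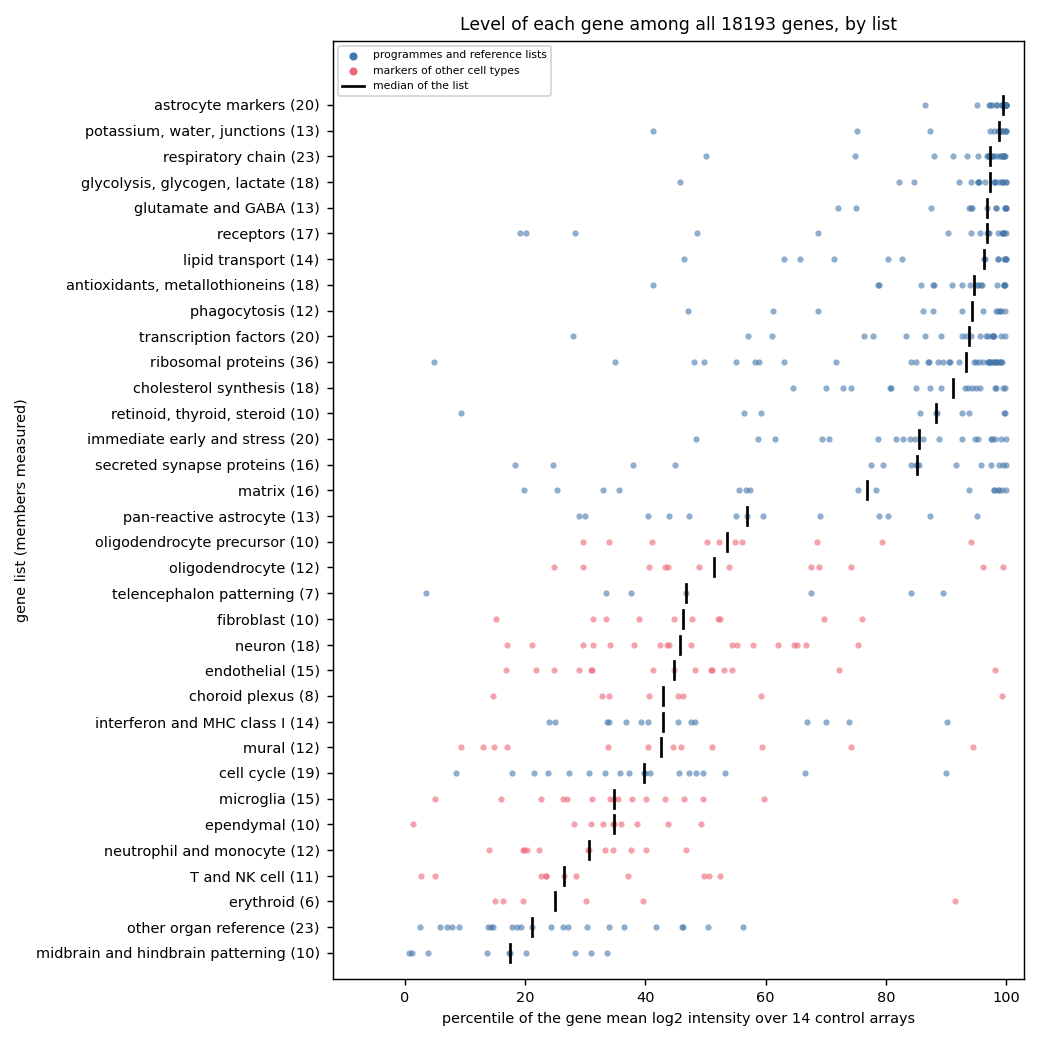
Percentile of each gene's mean log2 intensity over the 14 control arrays among all 18193 genes, with 1 row per list and the number of members measured in brackets. Blue points are programmes and reference lists, red points are markers of other cell types, and the black line is the list's median. Astrocyte markers sit at the right edge (median 99.5) and patterning genes of midbrain and hindbrain lowest (17.4).

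Regional patterning genes were read as a check of where the cells lay. Lhx2 and Emx2, homeobox genes of the forebrain, were at means of 10.72 and 10.12, whereas Tbr1, a gene of cortical neurons, was at 3.81 to 5.04. The 10 genes of midbrain and hindbrain were at the 17.4th percentile, with Hoxb3 the highest at 5.90 and En1 at 3.69. The 7 telencephalic genes were at the 46.8th. These levels describe the sort as a whole and do not give the share of cells from a region.

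Markers of other cells were set against 23 genes of other organs (skin, liver, pancreas, sperm and the like), which marked how bright a probe set can be without the gene's tissue. Their median percentile was 21.2 and the brightest was Krt10, a keratin of skin, at a mean of 7.84, a level that 43.7% of genes passed. RMA values do not reach 0, so Krt10 served as a strict mark. The median of the reference means was 5.12, and a mean below Krt10 does not show that a gene was absent. Of the lists furthest below it, 0 of 12 neutrophil and monocyte markers, 0 of 11 T and NK cell markers and 0 of 10 ependymal markers passed Krt10. S100a8, a granulocyte protein, was at a mean of 4.69, Cd3g, of the T cell receptor complex, at 4.12, and Foxj1, the regulator of motile cilia, at 5.53. Of 6 erythroid markers 1 passed, Bpgm, bisphosphoglycerate mutase, at a mean of 11.02, while Alas2, of heme synthesis, was at 6.35 and the haemoglobin gene Hba-a1 at 4.75. Of 15 microglial markers, at the 34.7th percentile, only Csf1r passed, at 8.15 (SD 0.83). Itgam and Aif1, which define microglia, were at 4.12 and 4.82.

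Neural and vascular markers were mixed. Of 12 oligodendrocyte markers 5 passed Krt10, of 10 precursor markers 3, of 18 neuronal markers 6, of 15 endothelial markers 2, of 12 mural markers 3 and of 10 fibroblast markers 2. The brightest members of several lists were bright on every array. Cnp, an enzyme of myelin, was at a mean of 13.37 (SD 0.27). Olig1, a factor of the oligodendrocyte lineage, was at 11.44 (SD 0.45) and Pdgfrb, a receptor of pericytes, at 11.51 (SD 0.33). Mbp, myelin basic protein, was at 11.91 with an SD of 1.19, so it was both bright and uneven. Some defining markers were low: Slc17a7, the vesicular transporter of glutamatergic neurons, was at a mean of 5.12, Pecam1 and Tie1 of endothelium at 5.15 and 4.87, and Myh11 of smooth muscle at 4.74. Others were brighter: Gad1, which makes GABA, was at a mean of 9.36, the synaptic genes Syt1 and Snap25 at 8.68 and 8.57, and Rbfox3, a nuclear protein of neurons, at 8.32. The endothelial genes Cldn5 and Slco1a4 were at 7.67 and 7.55, just under Krt10. In these bulk samples fewer cells of a type and less RNA per cell cannot be told apart.

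The choroid plexus list held a gene that was bright and uneven. Ttr, transthyretin, which choroid plexus epithelium secretes in large amounts, was at 10.05, 13.68 and 14.99 and ranked 147th. Its arrays did not group by treatment: the lowest were saline 1 at 10.05 and sham 1 day 2 at 10.11, and the highest sham 1 day 3 at 14.99. Kl, klotho, a more restricted choroid plexus gene, was at 9.72 on sham 3 days 1 and 8.31 on sham 7 days 1, and at 4.25 to 6.70 on the other 12 arrays. The mean of the 8 choroid plexus markers was highest on sham 3 days 1 at 9.92 and lowest on sham 1 day 2 at 5.95.

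Reactive and inflammatory genes were at middling levels with 3 exceptions among the arrays. The 13 pan-reactive genes were at the 57.0th percentile and the 14 interferon and MHC class I genes at the 42.9th. Gfap, the intermediate filament of reactive astrocytes, was at 10.78, 11.34 and 13.05. The mean over the pan-reactive list was 9.87 on sham 3 days 3, 9.45 on sham 1 day 3 and 8.49 on saline 3, and 7.38 to 8.20 on the other 11. Lcn2, a secreted lipocalin, was at 9.70 on sham 3 days 3 and at 7.55 on sham 1 day 3, against 4.81 to 6.60 elsewhere. On sham 3 days 3 other lists were high as well. The mean of its precursor markers was 9.54 against at most 8.03 elsewhere, with Pdgfra, the precursor's growth factor receptor, at 11.82 against 6.21 to 8.34, and Gpr17 at 10.01 against 5.55 to 7.31. Its cell cycle mean was 8.12 against at most 7.00, with the proliferation antigen Mki67 at 10.13 against 5.88 to 8.10. Immediate early genes were at the 85.5th percentile, and their mean was highest on sham 3 days 3 (11.51) and sham 1 day 3 (11.31) and lowest on saline 3 (9.52). The part of other cells in these levels was not tested.

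The interferon and MHC class I list stood apart on saline 3. Its mean there was 9.84, on sham 3 days 3 it was 8.74, and on the other 12 arrays it was 6.55 to 7.24. Iigp1, an interferon-inducible GTPase, was at 11.94 on saline 3 and 7.93 on sham 3 days 3, and at 4.58 to 5.98 elsewhere. H2-D1, an MHC class I heavy chain, was at 13.03 and 12.50 on these arrays and at 7.10 to 10.23 on the others. Gbp2 was at 10.20 and 8.35, with the other 12 between 5.49 and 8.26. Ifit1 was at 7.03 and 6.67, above the 4.52 to 5.52 of the rest, and Ifit3 at 8.17 and 8.35, above 6.19 to 7.25. H2-K1, another class I chain, was at separate levels in another way: 7 arrays were at 9.42 to 12.93 and 7 at 7.51 to 7.75. Saline 3 and sham 3 days 3 were thus above every other array in Iigp1, H2-D1, Gbp2, Ifit1 and Ifit3, and the first is of the dim and the second of the bright set.

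Promoters of all genes of the interferon and MHC class I list were searched on both strands for GAAANNGAAA (TTTCNNTTTC on the reverse). This is the core of the interferon-stimulated response element. The list was chosen as interferon and MHC genes, so its share of matches is a description and not a test. It was found in 5 of 14 promoters of the list (35.7%), those of B2m, Gbp2, Gbp3, Ifit1 and Ifit3, against 3.44% of all 32851 promoters of RefSeq GRCm38.p6. Of the list, 12 genes had a promoter in the table. Iigp1 was not among them, and the promoter of H2-D1 held 0 matches. Gbp2 lies at chr3:142620413-142620712, with 1 match 59 bases before the start. Ifit1 lies at chr19:34640639-34640938, with 2 matches 104 and 85 bases before it. Ifit3 lies at chr19:34583279-34583578, with 2 matches 156 and 122 bases before it. All 3 are on the plus strand and capitals mark the matches.
Gbp2: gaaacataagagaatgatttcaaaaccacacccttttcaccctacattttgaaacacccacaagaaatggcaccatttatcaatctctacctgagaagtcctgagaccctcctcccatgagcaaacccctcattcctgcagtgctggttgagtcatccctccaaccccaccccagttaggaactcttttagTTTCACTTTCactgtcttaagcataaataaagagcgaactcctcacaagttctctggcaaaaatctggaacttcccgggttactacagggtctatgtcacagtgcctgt
Ifit1: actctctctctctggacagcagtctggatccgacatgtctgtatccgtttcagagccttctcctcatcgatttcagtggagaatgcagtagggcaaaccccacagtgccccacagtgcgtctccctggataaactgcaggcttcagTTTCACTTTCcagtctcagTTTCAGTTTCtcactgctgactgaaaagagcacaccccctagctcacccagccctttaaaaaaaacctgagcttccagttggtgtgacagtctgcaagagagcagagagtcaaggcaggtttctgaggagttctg
Ifit3: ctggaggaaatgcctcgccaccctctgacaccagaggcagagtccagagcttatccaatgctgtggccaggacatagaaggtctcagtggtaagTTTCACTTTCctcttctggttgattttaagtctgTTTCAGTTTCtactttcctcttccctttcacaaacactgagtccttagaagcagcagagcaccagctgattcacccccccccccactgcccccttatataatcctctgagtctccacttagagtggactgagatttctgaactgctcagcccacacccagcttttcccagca
A match is a string of letters and was not tested for binding.

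**Figure D4:**
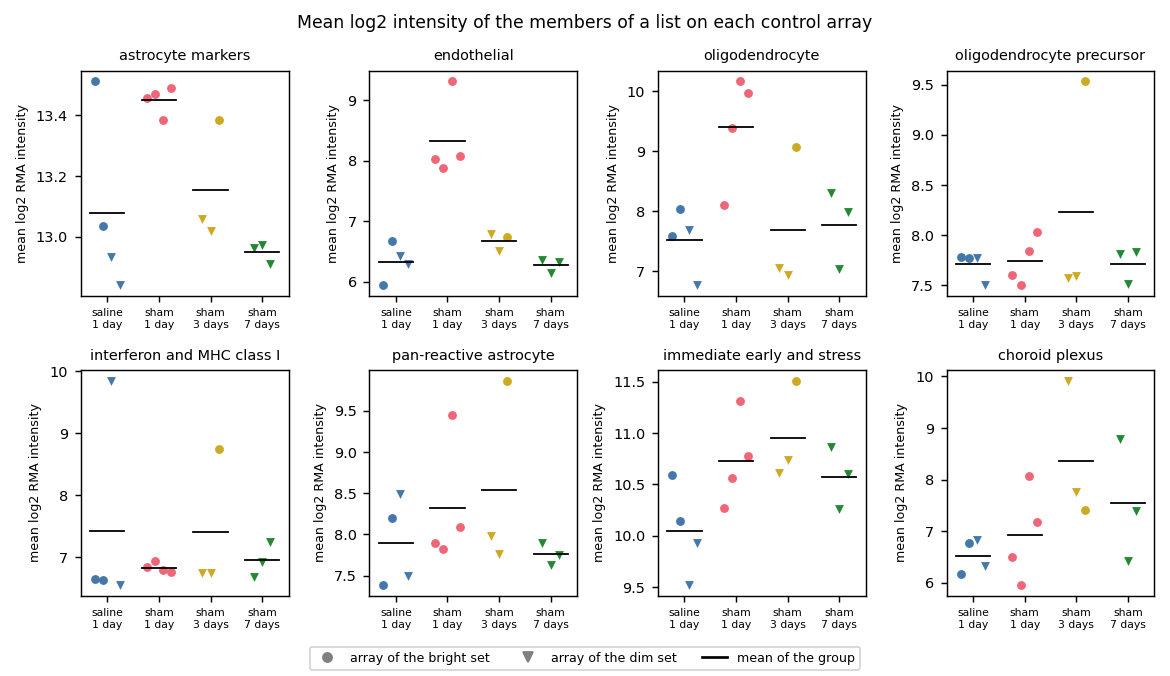
Mean log2 RMA intensity over the members of 8 gene lists on each of the 14 control arrays, by group. Circles are bright and triangles dim arrays, and lines are group means. Endothelial markers were at 7.87 to 9.32 on the sham 1 day arrays and 5.94 to 6.78 on all others, and the interferon list was highest on saline 3 at 9.84.

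The spread between arrays was narrow for most genes. Over 14 arrays the median SD of the 15271 genes that reached a log2 level of 5 on at least 3 arrays was 0.320, and within groups 0.257. Sham 7 days had the narrowest spread, a median SD of 0.148 (n = 3), with 47 genes above 1. Sham 1 day was at 0.152 (n = 4, 101 genes), sham 3 days at 0.210 (n = 3, 219 genes) and saline at 0.320 (n = 4, 361 genes). Saline and sham 3 days each hold arrays of both sets, and sham 1 and 7 days each hold 1 set. On the 7 dim arrays alone the median SD within groups was 0.155. Among genes with a mean of at least 10, the steadiest were Oxnad1 (SD 0.096), Mapre1, a microtubule end-binding protein, Ranbp10, Rere, Tmco1, Rab28, Atxn7l3b, Prkar1a, Hdac3 and BC031181. The widest in that range were Cryl1 (SD 2.08), Ttr (1.63), E2f5 (1.55), Pik3cd (1.42) and Tsc22d3 (1.25). Malat1, a nuclear noncoding RNA, had an SD of 1.10 around a mean of 12.77, and Mbp, Ptgds, Ncan, Samhd1, Mt3, Rps15, Rps9, Zdhhc14 and Vip were the others of the 15 widest.

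At separate levels lay 15 genes, defined after the values were seen as a gap of at least 1.5 with at least 3 arrays on each side. Xist and the Y-linked Eif2s3y, Kdm5d and Uty divided saline 2, 3 and 4 from the rest. Cryl1, which encodes a crystallin-like sugar dehydrogenase, was at 12.19 to 12.60 on all 7 dim arrays. On the 4 arrays of sham 1 day it was at 9.94 to 10.20, on saline 1 and 2 at 6.49 and 9.12, and on sham 3 days 3 at 7.08. Nrip2 was at 11.05 to 11.44 on the same 7 dim arrays and at 7.47 to 9.18 on the bright. E2f5, a cell cycle transcription factor, was at 13.09 to 13.39 on the dim arrays, 11.28 to 11.63 on sham 1 day, and 9.15, 9.42 and 9.76 on saline 1, saline 2 and sham 3 days 3. Sf1, a splicing factor that ranked 33rd and is not one of the 15, was lowest on saline 1 and sham 3 days 3, at 12.28 and 12.69. For Cryl1, Nrip2 and E2f5 the bright and dim arrays did not overlap, and the direction was against that of most bright genes. Ifi202b was at 7.04 to 8.21 on saline 3, sham 1 day 3 and sham 3 days 3 and at 4.09 to 4.75 elsewhere. Cyp3a13 was high on sham 1 day 2 and 4 and sham 3 days 1. Abcb1a, Apold1, Cldn5, Flt1 and Slco1a4 were high on the 4 arrays of sham 1 day, and H2-K1, described above, was high on 7 arrays from all 4 groups.

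**Figure D5:**
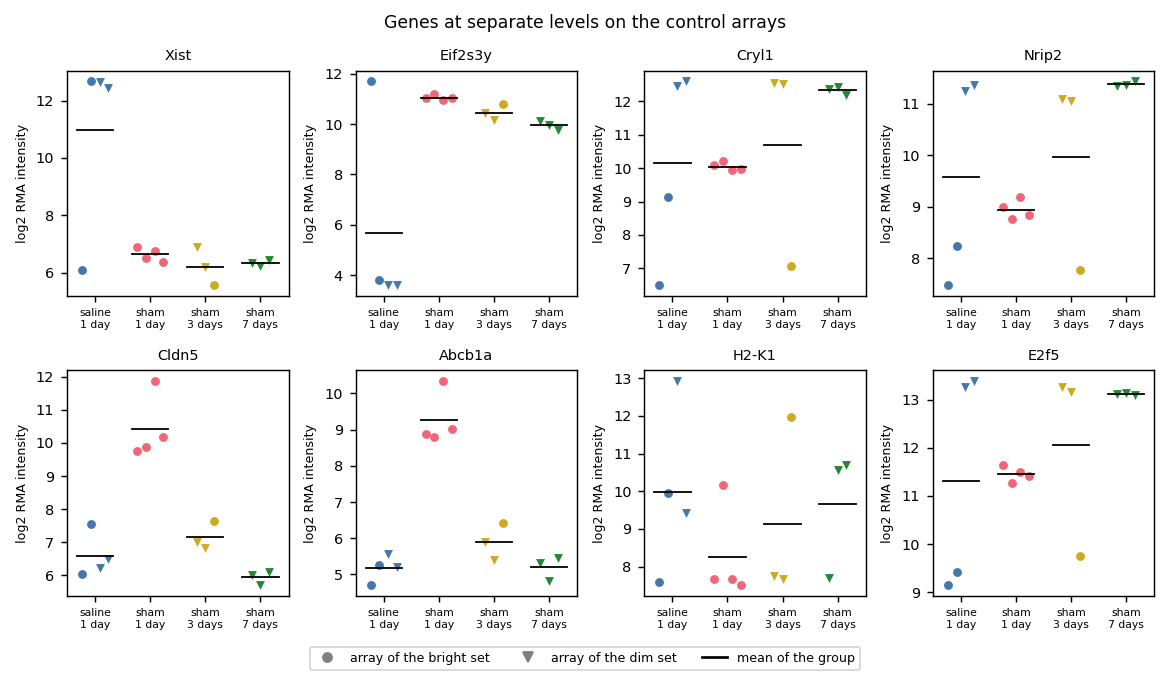
Log2 RMA intensity of 8 of the 15 genes that lay at separate levels, on each control array by group. Circles are bright and triangles dim arrays, and lines are group means. Xist is above 12 on saline 2, 3 and 4 alone, Cryl1 and Nrip2 are highest on the 7 dim arrays, and Cldn5 and Abcb1a on the 4 arrays of sham 1 day.

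Differences between control groups were tested with limma, in 1 model over the 14 arrays, and calls were made at 0.05 after Benjamini-Hochberg adjustment. Rose, fell, higher and lower are used of called genes from here on. The groups differed in 3475 of 15271 genes (22.8%) by the F test. Sham 1 day against saline 1 day gave 1122 genes higher in sham (7.35%) and 1209 lower (7.92%). Sham 3 days against sham 1 day gave 1165 higher (7.63%) and 1400 lower (9.17%), and sham 7 days against sham 1 day 627 higher (4.11%) and 1756 lower (11.5%). These 3 comparisons share the sham 1 day arrays. Arrays of the compared groups did not overlap in 18.8%, 34.5% and 39.6% of the genes tested, the background for the statements on overlap below. Between sham 7 and 3 days limma called 0 genes (0%), with 779 at an unadjusted p under 0.05. With array weights the last count was 87, on the dim arrays alone 59, and without sham 3 days 3 it was 1. On the bright arrays alone, sham 1 day against saline gave 1110 genes. Leaving out 1 array gave as few as 1299 (without sham 1 day 4), 1132 (without sham 3 days 2) and 877 (without sham 7 days 1) calls for the comparisons with sham 1 day, and as many as 3032, 3797 and 3452. Under quantile normalization the split at 7 days became 1174 higher and 964 lower, and at 3 days 1522 higher and 1202 lower.

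Endothelial markers were the list with the largest share of members called between sham 1 day and saline. Cldn5, the tight junction protein claudin 5, was at 6.04, 7.55, 6.21 and 6.51 in saline and at 9.74, 9.88, 11.88 and 10.18 in sham 1 day. In sham 3 days it was at 7.02, 6.83 and 7.64 and in sham 7 days at 6.02, 5.70 and 6.11. All 4 arrays of sham 1 day were above the other 10, with sham 1 day 3 the highest. The difference between sham 1 day and saline was 3.85 (SE 0.42, limma adjusted p 0.000534). Against sham 1 day, sham 3 days differed by -3.26 (SE 0.46, limma adjusted p 0.0013) and sham 7 days by -4.48 (SE 0.46, limma adjusted p 0.000295). Abcb1a, the drug efflux pump of brain capillaries, was at 4.70, 5.25, 5.55 and 5.21 in saline and 8.87, 8.78, 10.35 and 9.02 in sham 1 day. It was at 5.88, 5.39 and 6.41 in sham 3 days and at 5.32, 4.81 and 5.46 in sham 7 days. It too did not overlap, with a difference of 4.08 between sham 1 day and saline (SE 0.33, limma adjusted p 4.315e-05). Between bright arrays alone that difference was 4.28 (limma adjusted p 0.0188).

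Of the 15 endothelial markers, 12 were higher in sham 1 day than in saline and 0 lower, with a median difference of 1.94 over the list against 0.0024 over all genes. At 3 days 10 and at 7 days 12 of the 15 were lower than in sham 1 day. Slco1a4, an organic anion transporter of capillaries, was 3.42 higher, and Flt1, a receptor for vascular endothelial growth factor, 2.79 higher in sham 1 day than in saline. Outside the list, Jcad, an endothelial junction protein, was 3.58 higher than in saline, and Ptprb, a vascular phosphatase, was at 8.14 to 9.34 in sham 1 day and 5.13 to 6.92 on all other arrays. The mean of the list was 6.33 ± 0.31 (SD, n = 4) in saline, 8.33 ± 0.67 (n = 4) in sham 1 day, 6.68 ± 0.15 (n = 3) in sham 3 days and 6.28 ± 0.12 (n = 3) in sham 7 days. Its summed intensity ran from 13482 to 26441 in sham 1 day, against 5064 to 12776, 6656 to 7621 and 4588 to 5724 in the others. Without sham 1 day 3, the counts were 12, 8 and 12. With the array set as a covariate they were 12, 9 and 9, and without the 3 arrays high in Xist, with 1 saline array left, 12, 12 and 12. Among bright arrays alone 7 were higher in sham 1 day than in saline and 0 differed at 3 days, where 1 array remained.

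Markers of mural cells, oligodendrocytes, neurons and microglia also differed at sham 1 day. Over all genes tested, 7.35% were higher in sham 1 day than in saline, and 9.17% and 11.5% were lower at 3 and 7 days than in sham 1 day. Of 9 mural markers tested, 5 were higher than in saline, among them Rgs5, a pericyte regulator of G protein signalling, by 2.35 (SE 0.41), and Vtn, vitronectin, by 3.07. At 3 and 7 days 3 and 5 were lower than in sham 1 day. Of 12 oligodendrocyte markers 5 were higher than in saline, and 4 and 3 were lower at 3 and 7 days. Mobp, a myelin protein, was at 8.32, 8.08, 7.06 and 7.25 in saline and at 10.49, 11.19, 11.85 and 12.16 in sham 1 day. In sham 3 days it was at 7.89, 7.13 and 9.78 and in sham 7 days at 7.48, 6.75 and 7.22, so sham 1 day lay above every other array. The difference from saline was 3.75 (SE 0.50, limma adjusted p 0.00142). The oligodendrocyte counts were less steady than the endothelial ones: without sham 1 day 3 they were 2, 2 and 3, without the arrays high in Xist (1 saline array left) 1, 4 and 4, and with the array set as a covariate 2, 1 and 1.

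Of 18 neuronal markers 6 were higher in sham 1 day than in saline, and 0 on the bright arrays alone. Over all genes tested, 7.35% were higher in that comparison on all arrays. Snap25, a protein of synaptic vesicle fusion, was at 8.13, 8.79, 7.98 and 7.92 in saline and at 9.46, 9.37, 11.53 and 9.60 in sham 1 day, with 7.46 to 8.27 at 3 and 7 days. Its difference from saline was 1.78 (limma adjusted p 0.0112), and 1.85 with saline 1 as the only saline array (limma adjusted p 0.0781). Of 13 microglial markers tested 3 were higher: Ctss, a lysosomal protease, by 2.41, Csf1r by 1.56 and Cx3cr1, the fractalkine receptor, by 0.80. The call was lost for Csf1r without sham 1 day 4 (limma adjusted p 0.0506) and for Cx3cr1 without the arrays high in Xist (limma adjusted p 0.0695). The other members of that list were not called. Neutrophil, T and NK cell, ependymal and other-organ lists had 0 called genes in each of the comparisons by limma.

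Astrocyte genes differed by less, and their list mean differed between the array sets too, at 13.39 on bright and 12.96 on dim arrays. Of 20 astrocyte markers 4 were higher in sham 1 day than in saline, 1 was higher and 5 lower at 3 days than at 1 day, and 8 were lower at 7 days. Over all genes tested, 7.35% were higher in sham 1 day than in saline, and 9.17% and 11.5% were lower at 3 and 7 days. Under quantile normalization the marker counts became 0, then 2 higher, then 1 higher with 0 lower, so the direction was not kept. Without the arrays high in Xist, against saline 1 alone, 1 marker was lower and 0 higher in sham 1 day than in saline. The mean of the list was 13.08 ± 0.30 (SD, n = 4) in saline, 13.45 ± 0.05 (n = 4), 13.16 ± 0.20 (n = 3) and 12.95 ± 0.03 (n = 3) in sham 1, 3 and 7 days. Aldh1l1 was not called in any comparison (F test, limma adjusted p 0.519). Slc1a3 was at 14.01, 13.92, 13.87 and 13.70 in saline, 14.43, 14.28, 14.20 and 14.40 in sham 1 day, 13.63, 13.59 and 13.78 in sham 3 days and 13.66, 13.69 and 13.46 in sham 7 days. Sham 1 day lay above the others without overlap, by 0.45 over saline (SE 0.11, limma adjusted p 0.0187), and sham 7 days differed from sham 1 day by -0.72 (limma adjusted p 0.00233). Gjb6, connexin 30, differed by 0.80 from saline, and by -0.82 and -1.13 at 3 and 7 days against sham 1 day. Against saline 1 alone the differences of Slc1a3 and Gjb6 were 0.32 and 0.37 and were not called (limma adjusted p 0.191 and 0.259). Aldoc, Glul and Slc1a2 were lower at 7 than at 1 day (limma adjusted p 0.0348, 0.0423 and 0.0252), and Aqp4 was not called (0.0569). The calls of Aldoc, Glul and Slc1a2 were each lost when any of several single arrays was left out. Without sham 7 days 1 their limma adjusted p was 0.11, 0.137 and 0.0899. The call of Slc1a3 over saline was lost without saline 4, sham 1 day 1 or sham 1 day 4 (limma adjusted p 0.056, 0.052 and 0.058). That of Gjb6 at 3 days was lost without sham 3 days 2 (limma adjusted p 0.0507). The 7-day arrays are all dim and the 1-day sham arrays all bright.

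Genes of glycolysis and of phagocytosis were called higher in sham 1 day than in saline and lower at 3 and 7 days than at 1 day. Their list means differed between the array sets too. They were 12.23 on bright and 11.70 on dim arrays for glycolysis, and 11.33 and 10.90 for phagocytosis. The sham 1 day arrays are all bright, and the part of the array set in these calls was not tested. The shares over all genes given next are not matched for level. Over all genes tested, 7.35% were higher and 7.92% lower in sham 1 day than in saline. At 3 days 7.63% were higher and 9.17% lower than in sham 1 day, and at 7 days 4.11% and 11.5%. Of 18 genes of glycolysis, glycogen and lactate 5 were higher in sham 1 day than in saline, and 4 and 7 were lower at 3 and 7 days than at 1 day. Under quantile normalization the last counts were 1 lower, and 1 higher with 2 lower. Slc2a1, lower at 7 days, is also in the endothelial list, so the counts of these lists are not independent. Pfkm was at 12.56 to 13.27 in saline, 13.74 to 13.98 in sham 1 day, 13.20 to 13.32 at 3 days and 13.10 to 13.22 at 7 days, with a difference of 1.01 between sham 1 day and saline (SE 0.15, limma adjusted p 0.00187). Of 12 phagocytosis genes 4 were higher, and 4 and 6 lower at 3 and 7 days. Megf10 differed by -1.01 (SE 0.15) at 3 days and by -1.06 (SE 0.15) at 7 days, and under quantile normalization 4 and 5 of the list were lower. Of 17 receptors 3 were higher and 2, Gria2 and Fgfr1, lower in sham 1 day than in saline. At 3 and 7 days 6 and 7 were lower than in sham 1 day, Grm3 among them, with differences of -0.96 and -0.68, and 1, Fgfr1, was higher on each day. Fgfr1 was not called at either day with the mean of its probe sets. With that mean, Gria2 and Fgfr1 differed between sham 1 day and saline by 0.15 and 0.092, so their signs turned. The 7-day calls of Grm3 and Fgfr1 were also lost without some single arrays, such as sham 7 days 1 (limma adjusted p 0.0694 and 0.0896). Of 23 respiratory chain genes 0 were called between sham 1 day and saline by limma, and 4 rose at 3 days and 4 fell at 7 days against sham 1 day. Under quantile normalization 6 were higher at 3 days and 5 higher with 0 lower at 7 days, so the direction at 7 days turned.

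Mt3 and Kcne1l differed between days. All sham 1 day arrays are bright, and sham 3 days 3 is the only bright array of the later days, so day and array set can hardly be told apart. Mt3, a brain metallothionein, was at 9.09 to 9.81 in saline, 9.67 to 9.93 in sham 1 day, 11.39 to 12.21 in sham 3 days and 11.54 to 11.78 in sham 7 days. Arrays of 3 and 7 days did not overlap those of 1 day, including the bright array of sham 3 days. The differences from sham 1 day were 2.04 (SE 0.21, limma adjusted p 0.00055) and 1.85 (SE 0.21). Kcne1l, a potassium channel subunit, was at 5.81 to 6.39 in sham 1 day and at 8.09 to 8.79 in sham 3 and 7 days, with differences of 2.28 and 2.25, and at 6.52 to 8.06 in saline. Fam181a was lower in sham 1 day (6.34 to 7.32) than in saline (8.18 to 9.68), a difference of -1.82, and higher at 7 days (8.87 to 9.23) than at 1 day, by 2.06. Its 7-day arrays are all dim and its 1-day sham arrays all bright. Id1, an inhibitor of basic helix-loop-helix factors, was 1.91 higher at 3 days and 1.20 higher at 7 days than at 1 day. Its call at 7 days was lost without some single arrays, such as sham 7 days 1 (limma adjusted p 0.1525).

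Fkbp5 and Tsc22d3, which glucocorticoids induce, were higher in sham 1 day than in saline. Fkbp5, a co-chaperone of the glucocorticoid receptor, was at 7.63, 6.23, 5.95 and 5.88 in saline and at 8.94, 9.48, 11.26 and 8.82 in sham 1 day. It was at 9.32, 9.14 and 7.69 in sham 3 days and at 6.49, 6.60 and 6.52 in sham 7 days. Sham 1 day lay above saline without overlap, by 3.20 (SE 0.53, limma adjusted p 0.00257), and sham 7 days differed from sham 1 day by -3.09 (SE 0.57, limma adjusted p 0.0036). Tsc22d3, the glucocorticoid-induced leucine zipper, was at 11.66 on saline 1 and 9.26 to 9.80 on saline 2, 3 and 4, and at 12.42 to 13.01 in sham 1 day, a difference of 2.61 (SE 0.50, limma adjusted p 0.00533). Without the arrays high in Xist, against saline 1 alone, the difference was 1.997 for Fkbp5 (limma adjusted p 0.106) and 1.02 for Tsc22d3 (limma adjusted p 0.267), and neither was called. Mt1 was at 12.13 to 12.23 on saline 1, 3 and 4 and 14.42 on saline 2, against 13.96 to 14.48 in sham 1 day, so the groups overlapped. Its difference was 1.44 (SE 0.40, limma adjusted p 0.0286), and it was -0.050 without shared probe sets.

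Dcn, Igf2, Otx2 and Aldh1a2 rose at 3 days against sham 1 day. Dcn, decorin, a matrix proteoglycan of fibroblasts, was at 5.95 to 6.87 in sham 1 day and at 7.79, 7.93 and 11.32 in sham 3 days, with sham 3 days 3 the highest, a difference of 2.61 (SE 0.83, limma adjusted p 0.0458). Without sham 3 days 3 it was 1.46 and was not called (limma adjusted p 0.198). The Dcn call was also lost without some single arrays of other groups, such as saline 3 (limma adjusted p 0.0521) or sham 1 day 2 (limma adjusted p 0.0972). Igf2, a growth factor of leptomeninges and choroid plexus, was at 7.72 to 9.36 in sham 1 day and at 12.09, 10.21 and 10.60 in sham 3 days, a difference of 2.58. Otx2, a choroid plexus factor, and Aldh1a2, which makes retinoic acid, were 2.05 and 1.99 higher. Without sham 3 days 1 Igf2 differed by 2.02 (limma adjusted p 0.0652) and Otx2 by 1.57 (limma adjusted p 0.063), and neither was called. Of 9 fibroblast markers tested 3 rose at 3 days, of 8 choroid plexus markers 1, of 10 precursor markers 1 and of 18 cell cycle genes 2. The last 3 shares are near the 7.63% of all genes that rose. The mean of the fibroblast list was highest on sham 3 days 3, at 8.54. Of the sex-linked genes, Kdm5d and Uty were among the largest rises in sham 1 day over saline. Against saline 1 alone the differences were 0.67 for Kdm5d and 0.09 for Uty and were not called, so those calls rest on arrays that go against their label.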

How the data were processed

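Intensities of Affymetrix probe sets were deposited as 1 table of linear whole numbers, which the authors summarised with RMA, version not stated, per the submitters' processing notes. They ran from 9 to 34303 on the control arrays and were put on the log2 scale. GEO's platform annotation gave 34945 of 45037 probe sets 1 gene symbol, 932 several and 9160 none. Symbols were checked against RefSeq GRCm38.p6 (34741 matched, 0 changed). Genes that reached log2 5 (an intensity of 32) on 3 or more of the 14 arrays were tested: 15271 were kept and 2922 set aside.

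Tests used limma 3.58.1 in R 4.3.3, 1 model over the 4 groups without intercept (10 residual and 3.85 prior degrees of freedom), Benjamini-Hochberg adjustment over all genes kept, 2-sided, tested on simulated data first. The number of arrays limits the precision.

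Members and lists were chosen with earlier results of these data known. Named genes were the 30 highest, the markers, up to 6 brightest and 4 dimmest per list and any member outside the range of the rest, the widest and steadiest genes, and per comparison the 10 largest rises and 5 largest falls without overlap and up to 3 called members per list. Alternatives covered filters, normalization, probe sets, variances, array weights, a replicate block, the array set and left-out arrays. Same-numbered arrays of different groups deviated together in 4 of 19 pairs (correlation above 0.1, median 0.02), so numbers were not taken to pair samples.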

Additional observations from a re-analysis of the deposited data

Results flagged for a closer look

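In groups of 4 arrays, 134 series of values (34 lists and 33 genes, in saline and in sham 1 day) were checked for 1 array whose gap to the nearest exceeded 0.829 of the group's range, Dixon's 95% limit, which chance passes in about 1 of 20 series. There were 11. In saline, array 3 had a mean of 9.84 over the interferon and MHC class I list, against 6.55 to 6.65 on the other saline arrays. Saline 1 was at 5.32 for neutrophil and monocyte markers (others 5.67 to 5.70), saline 4 at 7.50 for oligodendrocyte precursor markers (7.77 to 7.78), and saline 2 at 7.54 for neuronal markers (6.52 to 6.60). Among single genes, saline 1 was at 14.62 for Ndrg2 (13.66 to 13.78), at 14.12 for Fos (13.70 to 13.73) and at 14.34 for Glud1 (13.75 to 13.78), and saline 2 at 14.53 for Fabp5 (13.65 to 13.75). In sham 1 day, array 3 was at 9.45 for pan-reactive genes (7.83 to 8.09) and at 9.32 for endothelial markers (7.87 to 8.09), and array 2 at 14.78 for Cpe (14.72 to 14.73).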

How the results depend on the processing

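Counts of called genes moved with the fit, and the cause was not tested. For the F test they were 9341 with array weights, 2073 with a replicate block, 6277 without the arrays high in Xist, 988 on bright and 2267 on dim arrays alone. Sham 1 day against saline gave 6368 with array weights, 1192 with the compared groups alone, 3762 with the array set as a covariate and 1110 on bright arrays. Sham 3 days against 1 day gave 6005 with weights, 4499 without the arrays high in Xist and 493 on bright arrays. Sham 7 days against 1 day gave 6760 with weights, 4992 with the compared groups alone and 4195 without the arrays high in Xist. Sham 7 against 3 days gave 87 with weights, 59 on dim arrays, 13 without the 3 arrays of lowest correlation, and 0 to 1 leaving out 1 array. The replicate block gave 1721, 1729, 1633 and 0 calls for the 4 comparisons.

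Without the arrays high in Xist the saline group is 1 array, assumed to vary like the other groups. Leaving out 1 array, the F test gave 2083 to 4979 genes (2083 without sham 1 day 4, 2239 without sham 7 days 3). Sham 1 day against saline gave 1299 to 3032 (1299, 1412 and 1550 without sham 1 day 4, sham 1 day 3 and saline 4). Sham 3 days gave 1132 to 3797 (1132 without sham 3 days 2, 1628 without sham 1 day 4). Sham 7 days gave 877 to 3452 (877, 881 and 1497 without sham 7 days 1, sham 7 days 3 and sham 1 day 4).

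With the mean of a gene's probe sets, 28 of the 50 highest genes stayed, and median percentiles were 97.7 for astrocyte markers, 97.0 potassium and water, 93.2 lipid transport, 87.1 cholesterol, 98.5 glycolysis, 98.6 respiratory chain, 76.7 phagocytosis, 87.7 matrix, 91.8 transcription factors, 88.9 receptors, 91.0 retinoid and thyroid, 92.0 immediate early, 39.9 microglia, 25.8 neutrophil and 19.6 erythroid. Without shared probe sets they were 99.7 for astrocyte markers, 99.1 potassium and water, 91.6 phagocytosis, 89.8 retinoid and thyroid and 85.9 ribosomal proteins. Transcription factors were at 93.0 on bright and 94.4 on dim arrays. On dim arrays the median SD was 0.208 over arrays and 0.155 within groups.

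Signs turned with the mean of probe sets for Dcun1d1 (0.13), Ptn (-0.15), Gria2 (0.15) and Fgfr1 (0.092) in sham 1 day against saline and Klf6 (0.026) at 3 days, without shared probe sets for Mt1 (-0.050), Rac1 (-0.081), Lss (0.20, 3 days) and Hsd17b7 (0.16, 7 days), and without the arrays high in Xist for Ptn (-0.0019). Median percentiles of the lists moved by less than the spread between arrays when 1 array was left out.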
